A study of Homo sapiens with 3 samples.

Results

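The keratin gene clusters made up 728 of the 377858 intervals in a capture design aimed at the ends of human introns. Members were chosen by position alone, as intervals lying fully inside chr12:52560000-53350000 or chr17:38800000-39800000 (hg19). The chromosome 12 cluster, home of the type II keratins and of KRT18, held 401 intervals. Of these, 12 lay in the KRT8/KRT18 block at chr12:53290000-53350000 and 389 in the rest. The chromosome 17 cluster, with the type I keratins and the keratin-associated proteins, held 327.

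The design was used to enrich intron ends from RNA of K562, a human erythromyeloid leukaemia cell line, in order to locate splicing branchpoints. There is 1 group of 3 K562 libraries, described as biological replicates without a treatment contrast, with ERCC spike-in RNA at 1% in replicates 1 and 2 and 1.08% in replicate 3. The interval list is common to all 3, so it carries no value per library and no replicate error, and no test was run on it. Each interval has a deposited score from 0 to 125, which none of the labels or files explains. The scores are described as scores and are not read as expression.

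Keratins are the intermediate filament proteins of epithelial cells. A type I and a type II chain pair to form the filament, and epithelia are told apart by the pairs they make. KRT8 and KRT18 are the pair of simple, single-layered epithelia such as liver and gut lining. KRT5 and KRT14 mark the basal layer of skin, KRT1 and KRT10 the layers above it, and a large set builds the hair shaft and its root sheath. Blood cells, from which K562 derives, are not epithelial. Keratin-associated proteins cross-link hair keratins, and their genes typically have a single exon.

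Gene names were attached by gene structure. The intron and exon lengths of each annotated gene (GENCODE release 29) were laid over the intervals as a rigid pattern, without use of its coordinates. Of 55 keratin genes, 45 were matched with at least 80% of their expected interval edges within 1 nt and no rival placement reaching 50% of that number. A further 6 (KRT5, KRT8, KRT10, KRT13, KRT16 and KRT40) were matched at 60% of edges. The last 4 (KRT7, KRT15, KRT18 and KRT19) were accepted because their best placement fell in annotated gene order beside matched neighbours. KRT7, KRT15 and KRT19 had a matched neighbour on each side. KRT18, the last gene of its cluster, had only KRT8, matched at 60%, below it and the region limit above. All 6 expected edges of KRT18 were found there, against 4 at the next-best placement. All 55, 27 on chromosome 12 and 28 on chromosome 17, then lay in annotated order. The placement rule required this of the last 4, so only the 45 and the 6 could have departed from it. The 55 genes accounted for 642 intervals, other placed genes for 73, and 13 belonged to no placed gene. The other genes were placed by the same rules, some beside matched neighbours with less than 60% of their expected edges found.

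The exons that the design left out can be read from its gaps, and they showed the shared structure of the family. In the chromosome 12 cluster, 7 gap lengths, each equal to an exon length common to at least 10 type II genes plus 1 nt, made up 38.5% of gaps up to 1000 nt (120 of 312), against 2.48% of such gaps in the whole list. They were 36, 62, 97, 127, 166, 216 and 222 nt. In the chromosome 17 cluster, the corresponding 5 lengths of 84, 127, 158, 163 and 222 nt made up 34.5% (86 of 249), against 2.02% in the whole list. The lengths were taken from the annotated exons of the placed genes, and those genes were placed by the same lengths. An excess over the whole list was therefore built into the comparison, which is a description and no test. Gaps of 127 and 222 nt were common to both clusters, with 20 each on chromosome 12, and 22 and 15 on chromosome 17. The 126-nt exon common to most of the genes lies within the part of the gene that encodes the coiled-coil rod. The 221-nt exon common to most of them encodes the end of the rod, with the helix termination motif known for mutations in skin blistering disease. A few of these gaps frame a further exon of the same length, exon 2 of KRT86 (126 nt) and exon 2 of KRT3 and of KRT79 (221 nt).

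**Figure D1:**
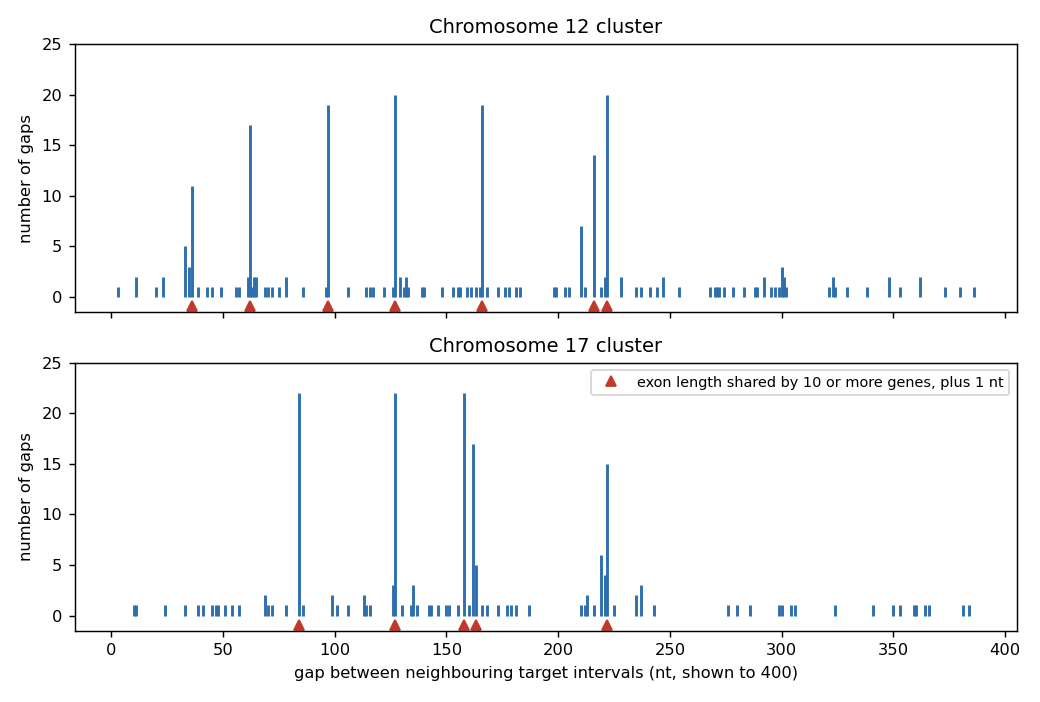
Number of gaps (y axis) of each length in nt (x axis, to 400) between neighbouring target intervals in the chromosome 12 cluster (top) and the chromosome 17 cluster (bottom); triangles mark exon lengths shared by 10 or more keratin genes of that type, plus 1 nt. The tallest lines, 20 gaps of 127 and of 222 nt on chromosome 12 and 22 gaps of 84, 127 and 158 nt on chromosome 17, stand over the triangles, and 17 gaps of 162 nt stand 1 nt below one.

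KRT8 departed from this pattern. Every other type II gene, 25 of 26, had separate exons of 165 and 126 nt, whereas KRT8 has a single exon of 291 nt, and the list showed it as a gap of 292 nt. The exon pair is shown for KRT5, the basal keratin, joined end to end, as an example of the usual type II arrangement. Capitals mark the 126 bases of the second exon. It is the coding-strand sequence of the GENCODE release 29 transcript, from GRCh38 chr12:52517590-52517754 and chr12:52517107-52517232 (minus strand).
KRT5: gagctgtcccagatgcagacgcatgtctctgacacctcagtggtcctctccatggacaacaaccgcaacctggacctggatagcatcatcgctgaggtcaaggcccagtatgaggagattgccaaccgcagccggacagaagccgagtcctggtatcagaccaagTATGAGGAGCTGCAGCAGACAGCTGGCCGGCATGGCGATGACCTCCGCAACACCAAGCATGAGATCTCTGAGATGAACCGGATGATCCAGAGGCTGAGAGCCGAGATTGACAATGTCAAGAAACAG
The intron that KRT5 has between the lower-case and the capital bases is absent from KRT8, and so are 2 intron ends that a design of this kind would target.

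Of 29 type I genes, 27 have an exon of 126 nt. It is shown for KRT18, for KRT19 (a keratin of simple and ductal epithelia with an unusually short tail), for KRT10 and for KRT14, with capitals on the bases identical in all 4. The exons lie in GRCh38 at chr12:52951731-52951856 (KRT18, plus strand), chr17:41524143-41524268 (KRT19), chr17:40820049-40820174 (KRT10) and chr17:41583551-41583676 (KRT14), the last 3 on the minus strand.
KRT18: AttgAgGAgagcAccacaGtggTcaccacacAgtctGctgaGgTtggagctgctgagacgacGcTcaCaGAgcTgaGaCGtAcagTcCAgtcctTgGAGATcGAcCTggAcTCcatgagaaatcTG
KRT19: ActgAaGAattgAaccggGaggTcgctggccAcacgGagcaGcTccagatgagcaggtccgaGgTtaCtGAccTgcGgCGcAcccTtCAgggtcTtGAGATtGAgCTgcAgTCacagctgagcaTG
KRT10: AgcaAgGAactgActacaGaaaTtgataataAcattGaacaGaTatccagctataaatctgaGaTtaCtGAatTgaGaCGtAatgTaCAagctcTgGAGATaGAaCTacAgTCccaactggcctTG
KRT14: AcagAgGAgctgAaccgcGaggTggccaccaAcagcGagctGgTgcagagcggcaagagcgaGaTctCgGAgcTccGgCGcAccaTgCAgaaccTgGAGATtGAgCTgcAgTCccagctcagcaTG
Only 39 of 126 positions (31.0%) carried the same base in all 4 genes. KRT19 and KRT14 were the closest pair at 72.2%, while KRT18 shared 46.8% with KRT19, 46.8% with KRT10 and 51.6% with KRT14. In the list, this exon appeared as a gap of 127 nt in KRT10 (chr17:38976300-38976426) and of 126 nt in KRT14 (chr17:39739803-39739928). In KRT18 and KRT19 it was not framed by intervals on both sides.

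Of 345 internal exons of the 55 genes, 263 were framed by an interval on each side. An exon counted as framed only when an interval edge lay within 1 nt of its expected place at both ends. Exons whose neighbouring intervals lay further off were left out, so a close fit of gap and exon was set by this rule. The gap was 1 nt longer than the exon in 234 and equal to it in 29. Of those 29, 27 had an intron of at most 100 nt on the side of lower coordinates, where 1 interval covers the whole intron. None of the 234 had one. The type I exon of 162 nt supplied 17 of the 29. On chromosome 17 the list had 17 gaps of 162 nt and 5 of 163 nt. Keratin introns were short, with a median of 514.5 nt over 400 introns and a range of 72 to 25966 nt. Of these, 90 (22.5%) were at most 200 nt and could be held by a single interval.

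The scores separated KRT8 and KRT18 from the rest of their cluster. All 12 intervals of the KRT8/KRT18 block scored above 0, against 27 of 389 (6.94%) in the remainder of the chromosome 12 cluster, 47 of 327 (14.4%) in the chromosome 17 cluster and 52.8% of the whole list. The mean score was 39.2 in the block, 0.14 in the rest of the chromosome 12 cluster, 1.85 in the chromosome 17 cluster and 6.80 in the whole list. Medians were 45, 0, 0 and 1 in the same groups. The chromosome 17 values include genes other than keratins, and KRT10 and KRT19, which were set apart because of their own scores. In its other keratin genes, 25 of 274 intervals scored above 0 (9.12%), with a mean of 0.15. A score of at least 5 was reached by 11 of the 12 block intervals, 4 of the 389, 20 of the 327 and 29.8% of the whole list. A score of at least 19 was reached by 9 of the 12, 0 of the 389, 8 of the 327 and 10.4% of the whole list. No interval of the 389 scored above 8, and the block and the remainder overlapped only through its 2 lowest scores, 1 and 8.

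**Figure D2:**
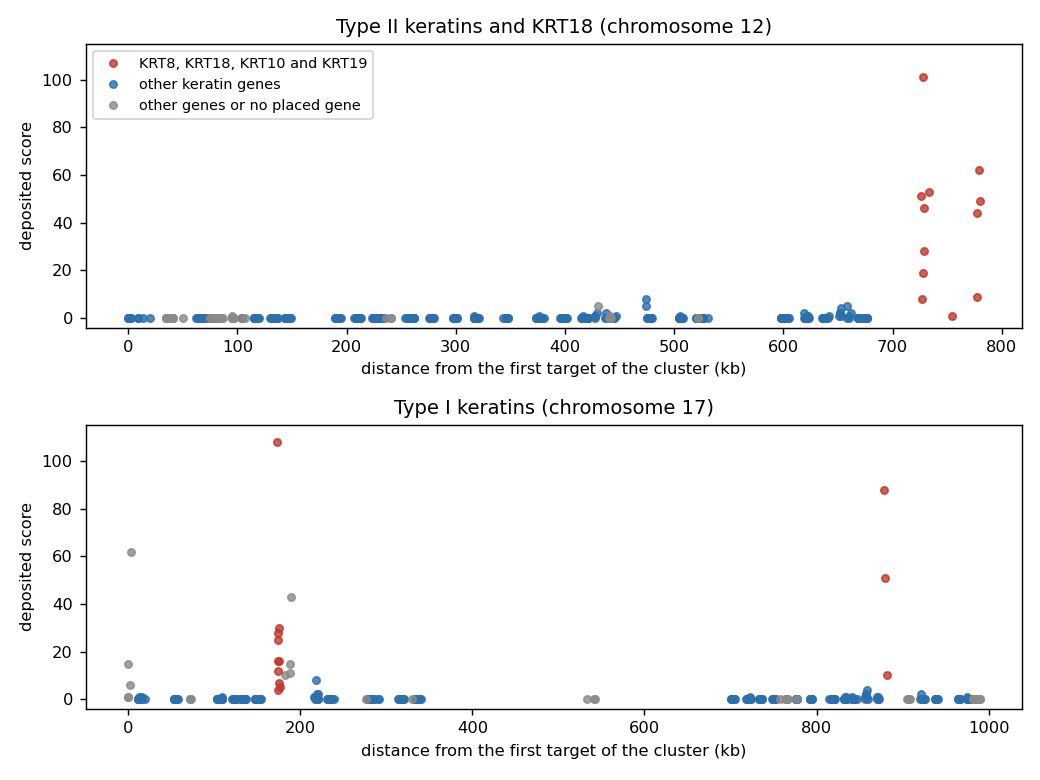
Deposited score (y axis) of each target interval against its distance in kb from the first target of the cluster (x axis), for chromosome 12 (top) and chromosome 17 (bottom); red points are KRT8, KRT18, KRT10 and KRT19, blue points the other keratin genes and grey points other genes or no placed gene. The red points pass 100 on chromosome 12 and reach 108 on chromosome 17, while no blue point exceeds 8. KRT10 and KRT19 are red because their mean scores are at least 5, so the score itself sets the contrast on chromosome 17.

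The keratin clusters scored low for their surroundings. In the 1 Mb on either side of the chromosome 17 cluster, 82.1% (below) and 85.4% (above) of intervals scored above 0. Beside the chromosome 12 cluster the shares were 32.1% below and 79.8% above. Windows of 1 Mb that held at least 50 intervals numbered 2069 over the whole list. Of these, 8.65% had a smaller share above 0 than the whole chromosome 12 cluster. For that cluster without the KRT8/KRT18 block the figure was 7.20%, and for the chromosome 17 cluster it was 11.3%. Targets covered 50.9 kb per Mb in the chromosome 12 cluster and 33.8 kb per Mb in the chromosome 17 cluster. Over the spans of the 2 chromosomes they covered 15.6 and 24.5 kb per Mb. The 1 Mb below and above held 26.9 and 36.3 kb of targets beside the chromosome 12 cluster. Beside the chromosome 17 cluster they held 48.9 and 49.5 kb. The chromosome 17 cluster was thus denser than its chromosome but sparser than its surroundings.

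KRT8, the type II chain of simple epithelia, had 9 intervals between chr12:53291403 and 53342654. By position the first 2 scored 51 and 8, the third (chr12:53292684-53292783) scored above 100, and the others scored 19, 28, 46, 53, 1 and 44. The score of 1 belonged to the 5′ end of an intron of 21384 nt upstream of the main gene body, whose 3′ end scored 53. KRT18, its type I partner on the plus strand, had 3 intervals between chr12:53342724 and 53345264, with scores of 9, 62 and 49. The last KRT8 interval (chr12:53342613-53342654, score 44) lay next to the first of KRT18. KRT8 is on the minus strand, but all intervals are listed on the plus strand, so strand does not separate these scores. The means were close, 39.0 for KRT8 and 40.0 for KRT18, and the ranges overlapped.

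On chromosome 17, KRT10 and KRT19 stood at a similar level. They were picked from the values themselves, as the only other keratin genes with a mean of at least 5. KRT10, the suprabasal type I keratin of skin, had 10 intervals from chr17:38974735 to 38978209. By position they scored 108, 16, 12, 4, 28, 25, 7, 30, 16 and 5, with a mean of 25.1. TMEM99, annotated on the opposite strand, overlaps the KRT10 gene and held the next 4 intervals, with scores of 10, 15, 11 and 43. All intervals are listed on the plus strand, so the scores of KRT10 and TMEM99 cannot be told apart by strand. KRT19 had 3 intervals from chr17:39680521 to 39684078, with scores of 88, 51 and 10 and a mean of 49.7.

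Both ends of an intron often differed in score in KRT8, KRT18 and KRT10. KRT19 had no intron with a separate interval at each end. Of 9 introns with an interval at each end, the 5′ end scored higher in 4 and the 3′ end in 5. In KRT8 the 5′ and 3′ ends scored 8 and 51 in intron 8, and 46 and 28 in intron 5, while in intron 6 the 5′ end scored 19 and the 3′ end above 100. In intron 3 of KRT18, its only intron of this kind, they scored 62 and 49. Neither end was consistently the higher. In the other 51 genes, 254 introns had both ends listed, and both scored 0 in 225.

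The remaining 51 keratin genes scored at or near 0. Over their 617 intervals, 49 scored above 0 (7.94%), 4 reached 5, and the mean was 0.14. In 32 of the 55 genes every interval scored 0, and in 4 (KRT8, KRT18, KRT10 and KRT19) every interval scored above 0. A mean of at least 1 was reached by 3 others. KRT79, known in mouse from the hair follicle canal, had 9 of 11 intervals above 0, a highest score of 5 and a mean of 1.82. KRT12, the type I keratin of the cornea, had 8 of 12 above 0, a highest score of 8 and a mean of 1.42. KRT13, the type I keratin of oral and oesophageal lining, had 6 of 8 above 0, a highest score of 4 and a mean of 1.38. The single highest values outside the leading 4 genes were 8 in KRT12 and 8 in KRT2, a cornifying keratin with scores of 5 and 8 in 2 adjacent intervals and 0 in its other 12.

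**Figure D3:**
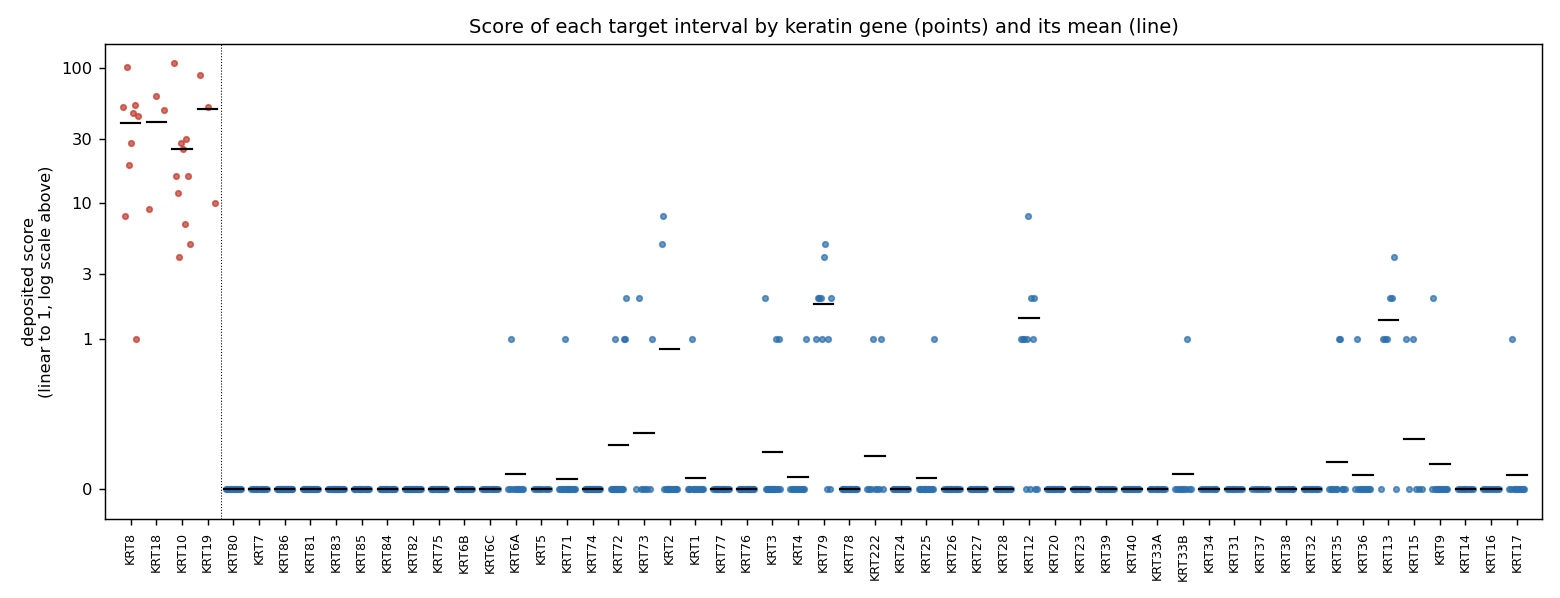
Deposited score of every target interval (points; y axis linear up to 1 and logarithmic above) and the mean (black line) for each of the 55 keratin genes (x axis), with KRT8, KRT18, KRT10 and KRT19 in red at the left and the others in blue in order of position. The means of the red genes lie between 25.1 and 49.7, and no blue mean exceeds 1.82. KRT10 and KRT19 are in red because of their mean scores.

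Grouped by the tissue a keratin is known from, high scores were confined to a few genes of the simple epithelial and suprabasal groups. Of the 5 simple epithelial keratins, KRT8, KRT18 and KRT19 had every interval above 0. The other 2, KRT7 (0 of 11 intervals above 0) and KRT20 (0 of 12), had none. Together the simple epithelial keratins had 15 of 38 intervals above 0 (39.5%). Of the 5 suprabasal and cornifying keratins, KRT10 alone had a mean of at least 5. KRT1 had 1 of 13 intervals above 0 and KRT9, of palm and sole skin, 1 of 12. The suprabasal and cornifying group had 14 of 63 above 0 (22.2%). Among 8 basal and stratified keratins, 5 had some interval above 0, at 20 of 86 intervals (23.3%), and the highest score was 8. The 5 hyperproliferative keratins, which wounded skin makes, had 2 of 54 intervals above 0 (3.70%). The 8 inner root sheath keratins had 8 of 107 (7.48%), none above 2. The 17 hair shaft keratins had 4 of 207 (1.93%), none above 1. Every group lay below the whole list, where 52.8% of intervals scored above 0. Near-identical neighbours such as KRT6A, KRT6B and KRT6C were listed as separate intervals, and none of the sources says how a score would be divided between such copies.

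Partners in the same filament did not always stand at the same level. KRT8 and KRT18 both scored high, with means of 39.0 and 40.0, and KRT5 and KRT14 were both at 0 in all of their 8 and 9 intervals. KRT1 had a mean of 0.08 where its partner KRT10 had 25.1. KRT3 and KRT12 of the cornea had means of 0.25 and 1.42, and KRT4 and KRT13 of the oral lining 0.08 and 1.38. Both the type II and the type I member were low in the last 2 pairs.

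Targets covered the leading genes, and some that scored 0, only in part. The share of intron-end bases listed, counting up to 100 nt inward from both ends of each intron in the longest coding transcript, was 18.3% in KRT18, 36.5% in KRT19, 47.7% in KRT8 and 74.9% in KRT10. In the other 51 genes its median was 96.8%, and 35 exceeded 90%. Of these 51, 7 lay below KRT10: KRT73 (43.7%), KRT5 (48.5%), KRT15 (56.6%), KRT7 (62.1%), KRT6A (69.0%), KRT13 (71.2%) and KRT37 (72.8%). KRT5, KRT7 and KRT37 scored 0 throughout, so a low share was not confined to scored genes. Per the labels' protocols, exons and parts of high transcription in K562 were left out of the design. Bases free of any annotated exon in GENCODE release 29 made up 18.4% in KRT18, 35.6% in KRT19, 54.4% in KRT8 and 89.8% in KRT10. Of these exon-free bases the list held 99.5% in KRT18 and 99.7% in KRT19, but 87.7% in KRT8 and 78.4% in KRT10. In each of the other 51 genes it held between 99.3% and 99.7%. The part of the transcription step in this difference was not tested.

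**Figure D4:**
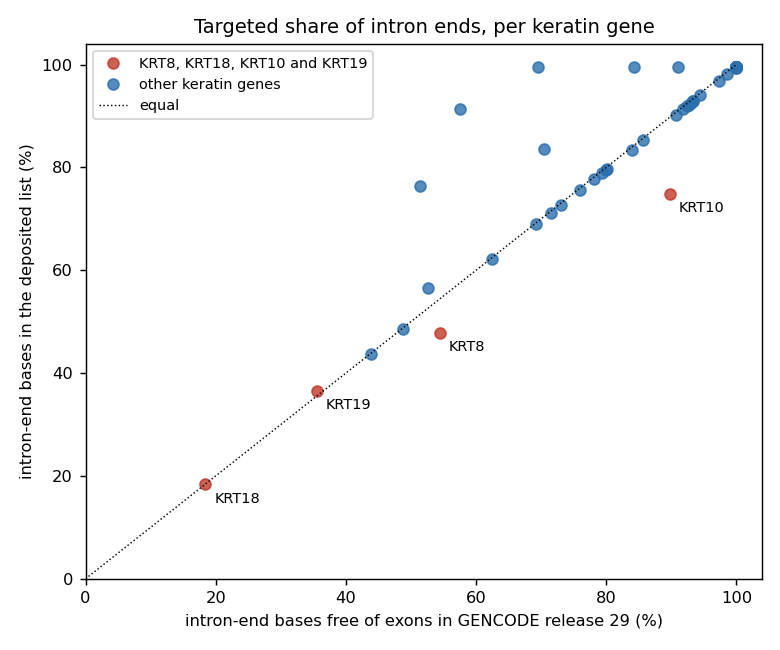
Share of intron-end bases in the deposited list (y axis, %) against the share free of exons in GENCODE release 29 (x axis, %) for each of the 55 keratin genes, with KRT8, KRT18, KRT10 and KRT19 in red, the others in blue and a dotted line of equality. KRT10 (89.8% free, 74.9% listed) and KRT8 (54.4% and 47.7%) fall below the line, while KRT18 and KRT19 lie on it; points above it have exons in release 29 over listed bases.

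Interval widths differed between the clusters. Exactly 100 nt was the width of 75.0% of intervals in the KRT8/KRT18 block (9 of 12), 91.5% in the rest of the chromosome 12 cluster, 77.7% in the chromosome 17 cluster and 87.7% in the whole list. Widths of 102 to 200 nt, which can hold a whole short intron, made up 4.37% in the rest of the chromosome 12 cluster, 11.0% in the chromosome 17 cluster and 3.37% in the whole list. The block had none.

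The stretch of keratin-associated protein genes inside the chromosome 17 cluster was almost empty of targets. Between KRT40 and KRT33A, both hair keratins, 359.9 kb (chr17:39142555-39502488) held 3 intervals with 202 bases in all, each with a score of 0. That is 0.56 kb per Mb. In annotated gene order, 40 keratin-associated protein genes and pseudogenes lie there, and 39 of them have no intron end free of exons. The annotation has 42 genes there in all. The other two are pseudogenes that do have intron ends, TBC1D3P7 with 28 expected interval edges and AC003958.1 with 4, and neither was placed on the intervals. The 2 widest gaps without a target were 191.9 kb (chr17:39142555-39334460) and 157.7 kb (chr17:39344815-39502488). On chromosome 12 the widest was 66.2 kb (chr12:53096675-53162894), between KRT77 and KRT76, and the next was 49.1 kb (chr12:53242330-53291402), between KRT78 and KRT8.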

How the data were processed

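The labels describe 3 K562 libraries captured with 1 probe design. Per the labels' protocols, it targeted 100 nt at each end of introns in GENCODE release 12, less exons and highly transcribed regions. The authors deposited it as a list of intervals, each with a score that no label or header explains. This score was not treated as a count and no model was fitted. Whether reads lie behind it, and at what depth, is unknown. The submitters' processing notes name hg19, Bowtie2, TopHat2 and bedtools.

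Genes of GENCODE release 29 (GRCh38) were placed by lengths alone, and no coordinate was converted. An interval belongs to a gene when an edge lies within 1 nt of an expected edge, or when it lies inside 1 keratin gene only. Code was tested on simulated interval sets. Exon sequences come from the release 29 transcripts. Members, lists and rules were chosen with earlier results of these data known. The plan was to name KRT8, KRT18, up to 5 genes per tissue list and the 5 others with the highest means. Not all of these are named. Further genes are named where a filament pair, an exon, a position or target coverage is described. Python 3.11.15, numpy 2.4.6, pandas 2.3.3, scipy 1.17.1 and matplotlib 3.10.9 were used. Read alignments were not analysed here, and 1 exon sequence is not reported here.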

Additional observations from a re-analysis of the deposited data

Results flagged for a closer look

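Interval numbers, a field that none of the comparisons uses, had gaps beside scored intervals. The clusters missed 4 of 732 running numbers (0.55%), against 1.24% in the whole list. One was in KRT8, between intervals scoring 46 and 53, and 2 were in KRT10, between scores of 108 and 16 and of 25 and 7. The fourth lay between scores of 6 and 62 near the lower edge of the chromosome 17 cluster, in AC073508.2, an annotated gene that overlaps KRT222. How often missing numbers of the whole list lie beside scored intervals was not counted. In that list 52.8% of intervals scored above 0, so no link between missing numbers and scores can be read from these 4.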

How the results depend on the processing

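Scores have no replicate error here, and gene names rest on structure. With a score of at least 5 in place of above 0, the share was 1.03% in the chromosome 12 cluster without the KRT8/KRT18 block and 6.12% in the chromosome 17 cluster. With a tolerance of 0 nt, 0 keratin genes were matched, since most gaps that frame an exon are 1 nt longer than it. The gap lengths shared by keratin genes made up 49.8% (chromosome 12) and 45.0% (chromosome 17) of gaps up to 400 nt, as this limit removes long gaps. On chromosome 17 they made up 27.3% between full-width intervals only, which leaves out whole short introns, and 44.2% when a gap equal to the exon length was admitted. A mean score of at least 1 was reached by 7 genes. Among genes matched at 80% of edges, 0 reached a mean of at least 5. At 60%, 2 did (KRT8 and KRT10). KRT19 was placed only by its neighbours, and KRT18 only by KRT8 and the region limit. The alternatives that concern genes by score, neighbours and equal gap lengths were chosen after seeing the data. No paired analysis was possible because the list holds no value per library, and no replicate could be left out.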

Other observations

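The longest runs of intervals at 0 crossed hair keratins. On chromosome 12, 148 consecutive intervals scored 0 over 221.5 kb (chr12:52660498-52881987), a run that ends in KRT6A. On chromosome 17, 73 did so over 500.5 kb (chr17:39022490-39522978), from KRT12 through the keratin-associated protein genes to KRT33B, and 60 more over 110.8 kb (chr17:39524243-39635084), from KRT33B to KRT35.

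Intervals of no keratin gene numbered 86, and 12 of them scored above 0 (14.0%). The highest was 62 (chr17:38805341-38805440), in AC073508.2, and the next was 43 (chr17:38990534-38990633), in TMEM99. KRT73-AS1, annotated opposite KRT73, a root sheath keratin, had an interval with a score of 5 (chr12:52995353-52995452). Of 11 keratin pseudogenes in the annotated gene order, 3 were placed on the intervals. The placement of KRT223P was weak. It rested on matched neighbours, with 6 of 22 expected edges found (27.3%) against 5 at the next-best placement.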
